A study of Mus musculus with 36 samples.

Results

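The 10 genes described here were chosen by their higher RNA level in mouse nephron progenitor cells (NPCs) after loss of the Tcf/Lef transcription factors. They are *Adora1*, *Ntsr1*, *Minar2*, *Lhfpl2*, *Ano3*, *Car12*, *Serpine2*, *Pamr1*, *Cnmd* and *Matn1*, 10 of 30125 genes listed in at least 1 of 3 tables. No threshold came with that choice, and the values that made it are given below as a description, with no test. All 10 were in each table and passed the filter on low values, a mean of at least 10 normalized counts over the libraries of a table, *Matn1* in wild-type NPCs only through its libraries without CHIR. The tests below concern other samples, in which NPCs met different doses of the Wnt agonist CHIR99021 (CHIR) or lost β-catenin.

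RNA was sequenced from 36 libraries of NPCs isolated from embryonic day 16.5 kidneys and cultured in nephron progenitor expansion medium. Wild-type NPCs had no CHIR, low CHIR (1.25 µM) or high CHIR (5 µM), with 3 libraries each. β-Catenin was removed in 2 ways, by Cre mRNA in NPCs homozygous for a conditional *Ctnnb1* allele (genotype B-catenin_c_c) or by 4 sgRNAs against *Ctnnb1* in NPCs of genotype Cas9-eGFP, which express Cas9 and GFP throughout. Their controls had no Cre mRNA or an sgRNA against GFP, and each of the 8 groups held 2 libraries, in low or in high CHIR. In the quadruple knockout (QKO), Cas9-eGFP NPCs received 1 sgRNA each against *Tcf7l1*, *Tcf7l2*, *Tcf7* and *Lef1*. There were 3 QKO libraries in high CHIR and 2 in low CHIR (replicates 1 and 3), with 3 GFP sgRNA controls at each dose. Transfected cells of both removal experiments and of the QKO also took up mCherry mRNA and were sorted for it. They stayed in low CHIR for 24 h (β-catenin) or 48 h (QKO) and then spent 24 h in low or high CHIR. The sorted cells were populations, and nothing in the labels ties a replicate to 1 litter, so p-values measure the spread between these libraries.

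CHIR blocks the kinase GSK3, which otherwise marks β-catenin for destruction. Stabilized β-catenin enters the nucleus and binds the DNA-binding Tcf/Lef factors, which then activate their targets. Without β-catenin the same factors recruit corepressors, so a target can be held down by Tcf/Lef and switched on by β-catenin. Tcf7l1 is known mainly as a repressor, and Lef1 mainly as an activator. In the developing kidney, low Wnt input goes with self-renewal of NPCs and high input with the start of nephron formation. Removal of β-catenin and removal of Tcf/Lef therefore take away different things, and the 10 genes were read side by side under both.

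The sgRNA target sites are shown because they define the knockout on which the genes were chosen. Positions are on GRCm38 and sequences were placed through GENCODE transcripts, with the last 3 bases, the PAM that Cas9 requires, in capitals.

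Tcf7l1 (chr6:72788307-72788329, plus strand): cttaaaaaaagcgccatcctGGG

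Tcf7l2 (chr19:55743069-55743091, plus strand): ttagcggccaagaggcaagaTGG

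Tcf7 (chr11:52261584-52261606, plus strand): agctgggggacgccatgtggAGG

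Lef1 (sgRNA only): cucccaggaaagcauccaga

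The *Tcf7l1* site lay in a coding exon of all 3 protein-coding transcripts of the gene, and the *Tcf7* site in a coding exon of both. The *Tcf7l2* site crossed the edge of an exon, with 19 of its 23 bases in a coding exon. The *Lef1* sgRNA was not found whole, with its PAM, inside 1 annotated exon and was not placed. The 4 sites against *Ctnnb1* lay in coding exons, each in 2 or 3 of its 6 protein-coding transcripts, between 120950726 and 120951637 on chromosome 9.

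The RNA of the targeted genes was read first. *Tcf7*, a mainly activating family member in this pathway, had 534, 535 and 268 normalized counts in the controls in high CHIR and 109.5, 179.7 and 127 in QKO. *Lef1* had 1504, 2743 and 1144 in the controls in high CHIR and 255, 441 and 513 in QKO, with no overlap. *Tcf7l1* had 612, 486 and 591 in the controls in high CHIR against 602, 539 and 736 in QKO, but in low CHIR it was below all controls, with 827 and 1286 against 2225, 1774 and 1736. *Tcf7l2* overlapped at both doses, with 1263, 2233 and 1750.0 in the controls in high CHIR against 999, 1616 and 1481 in QKO. An edit that leaves the RNA in place is not seen in such a total. Lower RNA does not check the sgRNAs either, since these genes also moved in high CHIR without them. On β-catenin removal at that dose 2 of the 4 were called higher and 2 lower by Cre. By Cas9 it was 1 higher and 2 lower. What lowered the RNA in QKO was not tested. *Lef1* was low in low CHIR, with 119.9, 25.7 and 19.9 in the controls and 87.1 and 21.5 in QKO.

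Depth ranged from 13089780 to 76071568 reads on genes over the 36 libraries. Of 8 markers that define NPCs, 7 or 8 had at least 10 normalized counts in each library outside wild-type high CHIR, where at least 6 did. Of 9 stroma markers, 4 to 9 reached that level in a library. Blood markers were partly at 0 in the transfected cells and summed to 192 to 1204 in wild-type NPCs. One library stood apart for myeloid RNA. The GFP sgRNA control of replicate 1 in high CHIR held 2474 counts of *Lyz2*, against 0 in each of the other two controls. Leaving it out moved the median log2 fold change of the 10 genes in QKO in high CHIR from 2.28 to 2.25. In bulk RNA, fewer cells of a type and less RNA per cell cannot be told apart.

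In the QKO, the fitted value was above the control for all 10 genes in low CHIR and for 8 in high CHIR. The median log2 fold change of the 10 was 1.64 in low CHIR, against 0.04 over all 15878 genes fitted. In high CHIR it was 2.28, against 0.00088. In low CHIR, 9 of the 10 were higher in both QKO libraries than in all 3 controls, and 8 in high CHIR were higher in all 3 QKO libraries than in all 3 controls. These are the contrasts that chose the genes, so nothing is read from these counts. Over all genes 10.2% in low and 11.1% in high CHIR did not overlap in that direction, and limma called 0.0063% and 2.05% of all genes higher. Values below are normalized counts, in the order of the replicates.

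Both receptors in the group are coupled to G proteins. *Adora1* (ENSMUSG00000042429, chromosome 1 from 134199223 to 134235431), the adenosine A1 receptor, had 31.8, 47.4 and 61.4 in the low CHIR controls and 179 and 319.6 in QKO. High CHIR libraries had 290.1, 289 and 437 in the controls and 1093, 1811 and 1363 in QKO. The means differed 5.32-fold in low and 4.20-fold in high CHIR, and no QKO library overlapped a control. The control level of *Adora1* was itself higher in high than in low CHIR. *Ntsr1* (ENSMUSG00000027568, chromosome 2 from 180499976 to 180544980), the receptor for the peptide neurotensin, had 515, 1201 and 1016 in the low CHIR controls and 763 and 2501 in QKO. These groups overlapped, and without QKO replicate 3 the fitted log2 fold change went from 0.69 to -0.17. In high CHIR *Ntsr1* had 8.24, 8.09 and 38.3 in the controls and 146, 536 and 734 in QKO. There the QKO mean was 25.9-fold higher, with every QKO library above every control.

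Among the membrane proteins, 2 had fitted values above the controls in low CHIR and below them in high CHIR, where the libraries overlapped. *Lhfpl2* (ENSMUSG00000045312, chromosome 13 from 94057796 to 94195409) encodes a protein of the LHFPL family, which crosses the membrane several times. In low CHIR it had 139, 78.0 and 73.5 in the controls and 484 and 388 in QKO, a 4.50-fold difference in means. In high CHIR it had 2677, 1269 and 1873 in the controls and 1313, 1130.1 and 1089.5 in QKO, so 2 QKO libraries were below all controls and 1 lay just above the lowest. *Minar2* (ENSMUSG00000050875, chromosome 18 from 59062248 to 59076962), a membrane protein named for its association with NOTCH2, had 262, 208 and 314 in the low CHIR controls and 659.9 and 621 in QKO. In high CHIR it had 1705, 1046 and 1658 in the controls and 1003, 1210.1 and 1175 in QKO, and the groups overlapped. These 2 were above their controls in low CHIR, on which nothing is read since that contrast took part in the choice. Their fitted values in high CHIR were -0.66 and -0.35 on the log2 scale. *Ano3* (ENSMUSG00000074968, chromosome 2 from 110655201 to 110950923), of the anoctamin family of channels and lipid scramblases, was higher at both doses. It had 70.9, 50.3 and 131 in the low CHIR controls and 349.7 and 224 in QKO. In high CHIR its values were 32.1, 20.2 and 19.1 in the controls and 238, 164 and 188 in QKO, an 8.26-fold difference in means.

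The enzyme of the group, *Car12* (ENSMUSG00000032373, chromosome 9 from 66713686 to 66766845), is a carbonic anhydrase held at the cell surface. It had 287, 248 and 146 in the low CHIR controls and 884 and 508 in QKO, and 122, 106 and 116 in the high CHIR controls against 821, 676 and 492 in QKO. The means differed 3.07-fold and 5.78-fold, and the groups did not overlap at either dose.

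The last 4 genes encode secreted or matrix proteins. *Serpine2* (ENSMUSG00000026249, chromosome 1 from 79794197 to 79861180) encodes protease nexin 1, an inhibitor of thrombin and plasminogen activators. It had 3124, 2313 and 3355 in the low CHIR controls and 11348 and 6207 in QKO. In high CHIR it had 4018, 2741 and 3840.3 in the controls and 10155, 8277 and 7229 in QKO, so the controls of the 2 doses overlapped, as did the QKO libraries, and QKO was above the controls throughout. *Cnmd* (ENSMUSG00000022025, chromosome 14 from 79637690 to 79662170) encodes chondromodulin, a cartilage protein that restrains vessel growth. Its values were 229, 188 and 179.8 in the low CHIR controls and 1128 and 927 in QKO, a 5.17-fold difference in means. In high CHIR they were 494, 451 and 593 in the controls and 1106, 1618 and 1257 in QKO, 2.59-fold. *Cnmd* in QKO overlapped between the doses, while its controls did not.

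*Pamr1* and *Matn1* were close to absent in the high CHIR controls. *Pamr1* (ENSMUSG00000027188, chromosome 2 from 102550012 to 102643041), a secreted protein with a peptidase-like domain, had 153, 76.0 and 65.7 in the low CHIR controls and 354 and 160.3 in QKO. The high CHIR values were 4.94, 1.01 and 0 in the controls and 172, 65.4 and 80.0 in QKO, 53.3-fold higher in the mean. *Matn1* (ENSMUSG00000040533, chromosome 4 from 130944385 to 130955475) encodes matrilin 1, a filament-forming protein of cartilage matrix. It had 78.3, 277 and 312 in the low CHIR controls and 367 and 1004 in QKO. In high CHIR it had 0, 1.01 and 1.06 in the controls and 21.7, 74.8 and 113 in QKO. The controls held 2 reads of *Matn1* in all against 214 in QKO, a ratio of 107 with a 95% exact counting interval from 29.2 to 887, which covers counting error only.

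**Figure D1:**
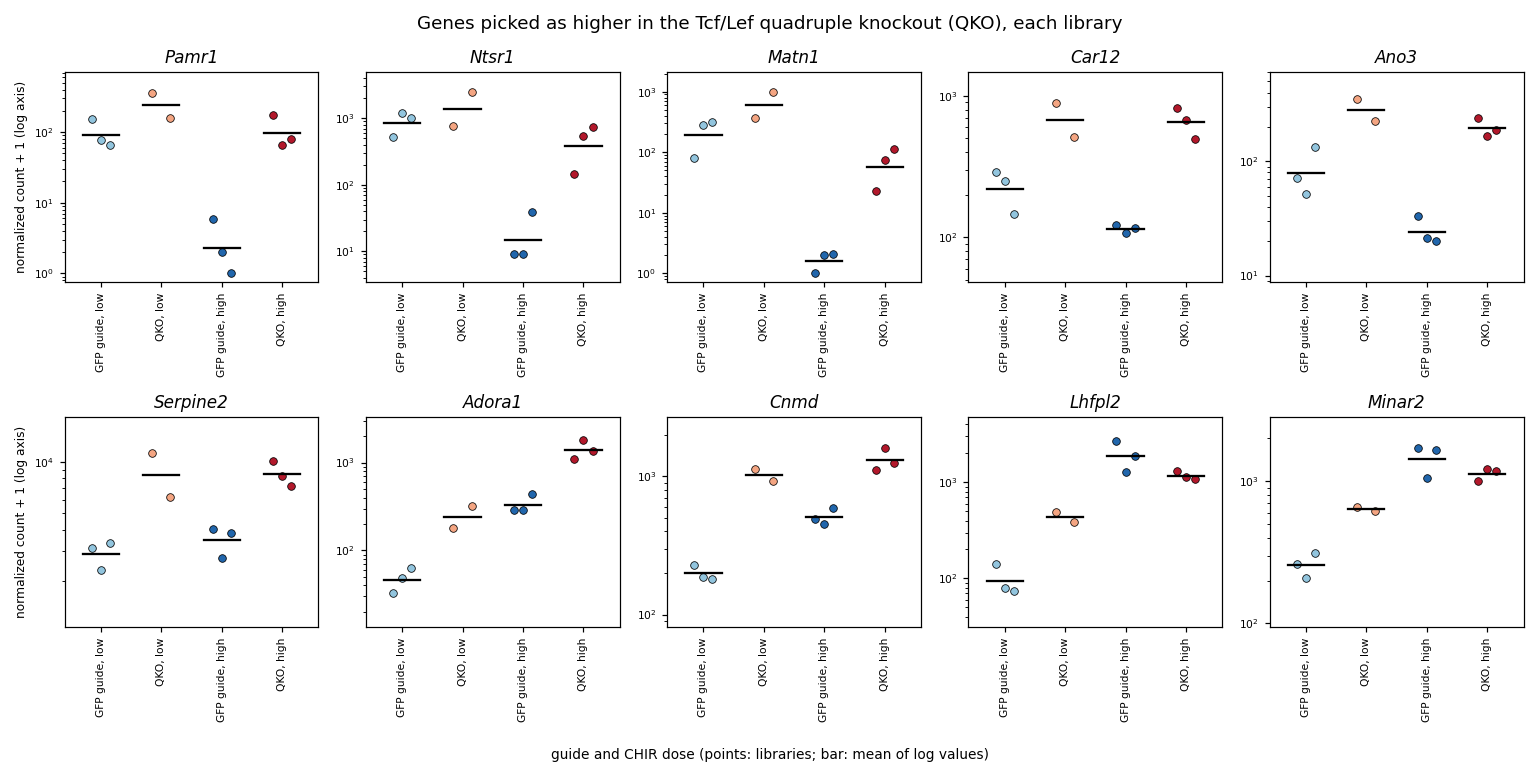
Normalized count plus 1 on a log axis for each of the 10 genes, in GFP sgRNA controls and QKO NPCs at low (1.25 µM) and high (5 µM) CHIR. Points are libraries and bars are means of log values. *Lhfpl2* and *Minar2* are above the controls in low CHIR, while in high CHIR their fitted values are -0.66 and -0.35 on the log2 scale.

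The promoters of 4 genes are shown as examples. Below, *Matn1* and *Ntsr1* had lower values in high than in low CHIR, as did *Pamr1* and *Car12*. *Cnmd* and *Lhfpl2* were lower on β-catenin removal in high CHIR, as was *Minar2*. No promoter was at hand for *Pamr1* and *Minar2*, and that of *Car12* is not printed. Each promoter shown is the 250 bases before the RefSeq start, build GRCm38.p6, written on the strand of the gene.

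Matn1 (chr4:130944135-130944384, plus strand): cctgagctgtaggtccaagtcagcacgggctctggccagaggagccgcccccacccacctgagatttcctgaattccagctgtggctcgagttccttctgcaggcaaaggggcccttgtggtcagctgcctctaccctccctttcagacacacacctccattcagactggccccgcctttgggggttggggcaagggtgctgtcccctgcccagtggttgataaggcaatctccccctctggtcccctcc

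Ntsr1 (chr2:180499726-180499975, plus strand): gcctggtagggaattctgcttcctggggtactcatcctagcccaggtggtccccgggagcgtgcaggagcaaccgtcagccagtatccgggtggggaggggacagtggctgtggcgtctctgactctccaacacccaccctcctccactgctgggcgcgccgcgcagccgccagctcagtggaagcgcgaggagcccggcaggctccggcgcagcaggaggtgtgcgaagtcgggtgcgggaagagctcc

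Cnmd (chr14:79662184-79662433, minus strand): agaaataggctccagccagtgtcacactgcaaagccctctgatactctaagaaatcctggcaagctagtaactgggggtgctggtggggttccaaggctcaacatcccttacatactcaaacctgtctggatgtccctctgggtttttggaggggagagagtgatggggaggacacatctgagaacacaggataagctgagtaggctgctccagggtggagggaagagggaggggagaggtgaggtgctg

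Lhfpl2 (chr13:94057546-94057795, plus strand): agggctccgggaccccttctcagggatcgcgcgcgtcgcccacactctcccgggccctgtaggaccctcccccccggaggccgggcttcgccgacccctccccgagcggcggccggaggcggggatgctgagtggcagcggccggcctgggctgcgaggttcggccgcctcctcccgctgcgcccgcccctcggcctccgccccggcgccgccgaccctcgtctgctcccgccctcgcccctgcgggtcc

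Capitals were kept for the letters CTTTGAA and CTTTGAT on either strand, which the Tcf/Lef factors are known to bind, and none of the 4 stretches held them. RefSeq promoters were at hand for 8 of the 10 genes, and 0 of the 8 held either motif in these 250 bases, against 8.63% of 27025 genes with a promoter entry. This says only that the letters are not in this window. The windows differed in composition. *Lhfpl2* was 80.0% G or C with 34 CpG pairs and *Serpine2* 78.8% with 34, whereas *Cnmd* was 54.0% with 0 and *Matn1* 62.0% with 4. The median promoter was 52.4% G or C with 6 CpG pairs.

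The first test asked how the 10 genes respond to the CHIR dose in wild-type NPCs. In high against low CHIR, 4 of the 10 were lower and 1 was higher, where a call by limma needs a Benjamini-Hochberg adjusted p below 0.05 and a change of 0.5 or more on the log2 scale. Over all 17411 genes, 5.05% were called lower and 5.33% higher. The median log2 fold change of the 10 was -0.85, against 0.0094 over all genes. *Ntsr1*, *Pamr1*, *Car12* and *Matn1* were lower and *Lhfpl2* higher. The call of *Matn1* is counted here but not read as a result. Its means of 7.04 in low and 1.06 in high CHIR are under the filter, which it passed only through its libraries without CHIR.

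*Ntsr1* had 52.6, 38.0 and 69.5 normalized counts in low CHIR and 0, 2.79 and 1.87 in high CHIR. It fell by 4.57 on the log2 scale (standard error 0.61, limma adjusted p = 0.00109). *Pamr1* had 217, 169 and 174 in low CHIR and 48.2, 12.6 and 13.1 in high CHIR, and fell by 3.14 (standard error 0.44, limma adjusted p = 0.00156). Both fell in every library, with no overlap. *Car12* had 152, 156 and 271 in low CHIR and 48.2, 26.5 and 72.0 in high CHIR, and fell by 2.02 (standard error 0.38, limma adjusted p = 0.00696). *Matn1* was near the detection limit in wild-type NPCs, with 9.2, 4.75 and 7.19 in low CHIR and 2.24, 0 and 0.935 in high CHIR. It fell by 2.09 (limma adjusted p = 0.044), from 18 reads in all to 3, a ratio of 6.07 with a 95% counting interval from 1.77 to 32.2. Its call was lost in 4 fits that each left out 1 library: without replicate 2 of high CHIR (adjusted p = 0.0978) and without replicate 1, 2 or 3 of low CHIR (0.133, 0.0644 and 0.137). It was also lost with DESeq2 (0.0604), a pseudocount of 5 (0.0853), only the groups compared (0.148) and the replicate number as a block (0.05003).

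*Lhfpl2* went the other way. It had 294, 276 and 211 in low CHIR and 1185, 801 and 1965 in high CHIR, and rose by 2.25 on the log2 scale (standard error 0.31, limma adjusted p = 0.00137). *Minar2* had 648, 947 and 722 in low CHIR and 1276, 1013 and 3419 in high CHIR. All 3 high CHIR libraries were above all 3 in low CHIR, but the log2 fold change of 1.11 missed the threshold (limma adjusted p = 0.0937). Without high CHIR replicate 2 it was 1.45 and was called (adjusted p = 0.0335). DESeq2 called *Minar2* with all libraries (adjusted p = 0.00889).

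The other 4 genes were not called between these doses. *Adora1* had 146, 225 and 122 in low CHIR and 406, 634 and 78.5 in high CHIR, where replicate 3 alone was below the low CHIR libraries. Without that replicate its log2 fold change was 1.67 in place of 0.78, and it was called (limma adjusted p = 0.0164 in place of 0.514). *Serpine2* had 5730.5, 5661 and 3319.9 in low CHIR and 9483, 5494 and 20263 in high CHIR (log2 fold change 1.10, adjusted p = 0.173, and 0.0351 with DESeq2). *Cnmd* had 221, 169 and 174 in low CHIR and 227, 131 and 59.8 in high CHIR (adjusted p = 0.391). *Ano3* had 67.0, 47.5 and 27.5 in low CHIR and 61.6, 11.2 and 12.2 in high CHIR (adjusted p = 0.381). For each of these 4, the libraries of the 2 doses overlapped.

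Wild-type NPCs in high CHIR differed broadly from those in low CHIR. The 7 self-renewal genes summed to 306 to 405 against 10134 to 16014, and all 7 were called lower. The 8 ureteric markers summed to 2947 to 7119 against 993 to 1335, with 3 of 6 tested called higher, and their part in the results above was not tested.

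Taking CHIR away altogether gave 2 genes higher and 1 lower than in low CHIR, against 2.37% and 2.60% of all genes. Of the 2 higher, *Matn1* passed the filter only through the libraries without CHIR, so its call is not read as a result. The comparison shares its low CHIR libraries with the one above. *Pamr1* had 994, 896 and 657 with no CHIR, a rise of 2.17 on the log2 scale over low CHIR (standard error 0.44, limma adjusted p = 0.0257). *Matn1* had 41.8, 42.4 and 43.6, a fitted difference of 2.48 (standard error 0.57, limma adjusted p = 0.0392). Its means of 7.04 in low and 1.06 in high CHIR are under the filter of 10, which it passed through these 3 libraries alone, so no change of *Matn1* is read from this test. With a pseudocount of 0.5 its adjusted p was 0.0663. *Minar2* had 241, 250.3 and 199 and fell by 1.73 (standard error 0.38, limma adjusted p = 0.0326). In each of the 3 no library overlapped, but leaving out any 1 of the 6 libraries lost all 3 calls, with adjusted p from 0.0524 to 0.162. *Car12* had 373, 266 and 422 with no CHIR, 0.90 above low CHIR on the log2 scale and not called (adjusted p = 0.193). *Lhfpl2* had 200.6, 132 and 192, *Cnmd* 116, 105 and 113, and *Adora1* 141, 87.8 and 67.0, and none was called (adjusted p from 0.302 to 0.543). *Ntsr1*, *Ano3* and *Serpine2* overlapped their low CHIR libraries, with log2 fold changes of -0.61, -0.17 and -0.28.

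Across no, low and high CHIR, the libraries of *Pamr1* did not overlap between doses and were lowest in high CHIR. Those of *Matn1* did the same, given only as a description because its libraries without CHIR carried it over the filter. Both comparisons share the low CHIR libraries, and of the steps of these 2 genes only that of *Pamr1* from low to high CHIR kept its call with each library left out. *Lhfpl2* and *Minar2* had their lowest mean with no CHIR and their highest with high CHIR, each with 1 of its 2 steps called.

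**Figure D2:**
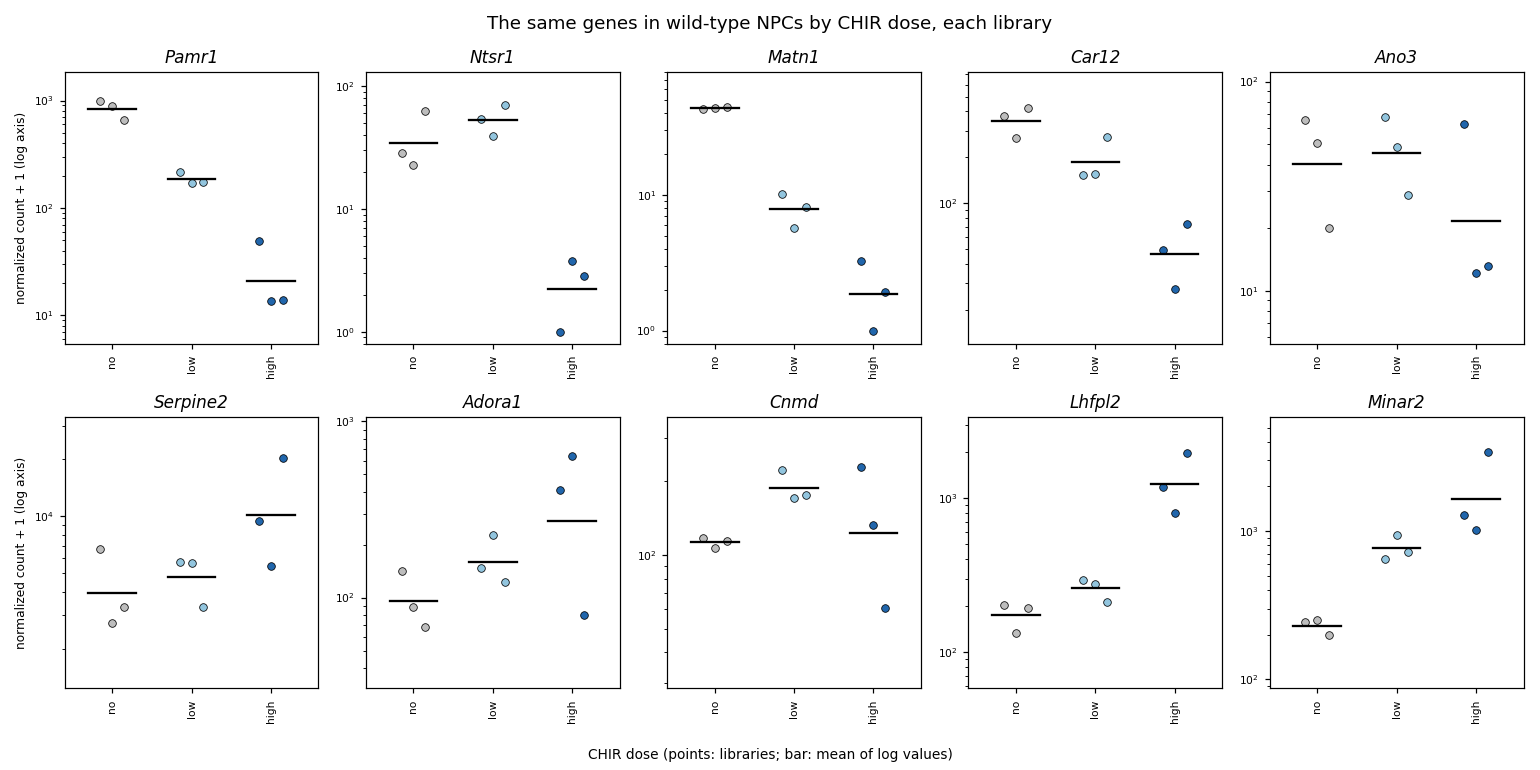
Normalized count plus 1 on a log axis for each of the 10 genes in wild-type NPCs with no (0 µM), low (1.25 µM) and high (5 µM) CHIR. Points are libraries and bars are means of log values. *Pamr1* goes down from between 657 and 994 with no CHIR to between 12.6 and 48.2 in high CHIR, and *Lhfpl2* goes up from between 132 and 200.6 to between 801 and 1965.

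The second set of tests asked what removal of β-catenin does to the same genes. In low CHIR none of the 10 was called higher or lower, by Cre or by Cas9, with limma. At this dose few genes were called, which with 2 libraries in each group does not show that few changed. Over 16780 genes, Cre removal gave 0.179% higher and 0.149% lower, and Cas9 removal gave 0.0358% higher and 0.0179% lower. Without adjustment, limma's p was below 0.05 for 775 genes higher with Cre and 636 lower, and for 260 and 230 with the *Ctnnb1* sgRNAs, at that cut-off. Of the 10 genes, DESeq2 called *Ntsr1* lower on Cre removal (adjusted p = 0.042) and edgeR called none. The median log2 fold change of the 10 was 0.12 on Cre removal and -0.17 on Cas9 removal. *Ntsr1* had 202 and 141 counts without Cre and 78.7 and 48.9 with it (limma adjusted p = 0.38). *Ano3* had 2.22 and 69.6 without Cre and 30.0 and 59.2 with it. The library with 2.22 set that difference, since the log2 fold change of 1.52 became -0.71 without it, and 3.75 (adjusted p = 0.0301, called) without the other control.

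In high CHIR, 3 of the 10 were higher and 3 lower on Cre removal, where 5.90% and 2.75% of all genes were called. On Cas9 removal it was again 3 higher and 3 lower, where 3.44% and 1.64% were called. *Pamr1*, *Ntsr1* and *Matn1* were the genes called higher and *Cnmd*, *Lhfpl2* and *Minar2* the genes called lower, in both ways of removal. *Car12*, *Ano3*, *Serpine2* and *Adora1* were called in neither. *Ctnnb1* RNA itself had 1629.9 and 1270.1 normalized counts in the *Ctnnb1* sgRNA libraries of high CHIR and 2632 and 2701 in their GFP sgRNA controls. With Cre it had 2254 and 2583, and without Cre 2423 and 2207, a total over the whole gene that does not show which exons were read.

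*Pamr1* showed the largest rise of the 10 on Cre removal. It had 13.8 and 8.3 without Cre and 1085 and 431 with it, a log2 fold change of 5.87 (standard error 0.36, limma adjusted p = 3.77e-07). With the GFP sgRNA it had 74.2 and 81.4 and with the *Ctnnb1* sgRNAs 1121 and 1160.1, a log2 fold change of 3.86 (standard error 0.36, limma adjusted p = 3.25e-05). These levels were at or above those of the low CHIR controls, which held 353 and 347 without Cre and 444 and 580.1 with the GFP sgRNA.

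*Ntsr1* rose but stayed far below its level in low CHIR. In high CHIR the GFP sgRNA controls had 0.749 and 0.957, and the *Ctnnb1* sgRNA libraries 35.0 and 50.2, a log2 fold change of 4.54 (standard error 0.57, limma adjusted p = 0.000376). The 2 controls held 1 read each, and the ratio of 50.9 had a 95% exact counting interval from 13.7 to 426. The GFP sgRNA controls in low CHIR held 319 and 332. On Cre removal *Ntsr1* went from 3.68 and 2.07 to 29.3 and 6.07 (log2 fold change 1.95, limma adjusted p = 0.04996). That call was lost without either control library (adjusted p = 0.0958 and 0.227), without Cre replicate 1 (0.365), with no filter (0.0648), with a pseudocount of 5 (0.103) and with only the groups compared (0.324). It was lost with edgeR (0.55) and DESeq2 (0.633) too, but both leave out Cre replicate 1, so the tool and the library cannot be told apart there.

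*Matn1* was also brought back in part. It was at 0 in both GFP sgRNA libraries in high CHIR and at 7.37 and 23.8 with the *Ctnnb1* sgRNAs, at least 5.42-fold higher than a floor of 3 reads per library (limma adjusted p = 0.0032). Without *Ctnnb1* sgRNA replicate 2 the adjusted p was 0.0697. On Cre removal *Matn1* went from 1.84 and 0 to 13.1 and 10.9, from 2 reads to 22, a ratio of 12.4 with a counting interval from 3.06 to 109. Its limma call (adjusted p = 0.00976) was lost without control replicate 2 (0.0978), without Cre replicate 1 (0.0617), with a pseudocount of 5 (0.0521) and with only the groups compared (0.107). It was also lost with edgeR (0.142) and DESeq2 (0.078), again without Cre replicate 1. The low CHIR controls held 103 and 171 with the GFP sgRNA.

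*Cnmd* fell most. It had 724 and 892 without Cre and 63.6 and 88.6 with it, and fell by 3.40 on the log2 scale (standard error 0.39, limma adjusted p = 8.36e-05). In Cas9 NPCs it had 619.7 and 653 with the GFP sgRNA and 82.9 and 151 with the *Ctnnb1* sgRNAs, and fell by 2.49 (standard error 0.39, limma adjusted p = 0.00202). *Cnmd* is the 1 gene of the 10 that was called lower here and higher in every QKO library than in the controls at both doses. The QKO values took part in the choice of the genes, so nothing is read from that side. Over all genes, 10.2% in low and 11.1% in high CHIR did not overlap in that direction.

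*Lhfpl2* and *Minar2* also fell. *Lhfpl2* had 2421 and 2410.0 without Cre and 397 and 455 with it, and fell by 2.50 (standard error 0.35, limma adjusted p = 0.000527). On Cas9 removal it went from 2202 and 2008 to 755 and 584 and fell by 1.66 (limma adjusted p = 0.0165). The Cas9 call was lost in each of the 4 fits that left out 1 of these libraries (without *Ctnnb1* sgRNA replicate 1 or 2, adjusted p = 0.0539 and 0.179, and without GFP sgRNA replicate 1 or 2, 0.102 and 0.101). *Minar2* went from 2310.5 and 1966 to 489.7 and 314 on Cre removal and fell by 2.44 (standard error 0.25, limma adjusted p = 3.26e-05), and from 2009.8 and 2019 to 639 and 564 on Cas9 removal and fell by 1.74 (standard error 0.25, limma adjusted p = 0.00104). The *Minar2* calls held with each library left out.

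For the other 4 genes removal gave no call. *Serpine2* had 3624 and 5984 without Cre and 4232 and 5980.1 with it, and 11606 and 6578 with the GFP sgRNA against 10140.5 and 7574 with the *Ctnnb1* sgRNAs. Its log2 fold changes were 0.11 (standard error 0.40) and 0.00 (standard error 0.40). *Car12* had 271 and 346 with the GFP sgRNA and 398 and 579 with the *Ctnnb1* sgRNAs (log2 fold change 0.65, standard error 0.41). *Ano3* had 30.0 and 33.5 against 50.6 and 45.8 (0.59, standard error 1.03). *Adora1* was on the lower side in each removal, with 286 and 310.1 against 215 and 209 by Cas9 and 232 and 217 against 164 and 76.5 by Cre (-0.49 and -0.996, standard error 0.65 for each). The standard errors of *Ano3* and *Adora1* are wide, so the absence of a call does not show the absence of a change.

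**Figure D3:**
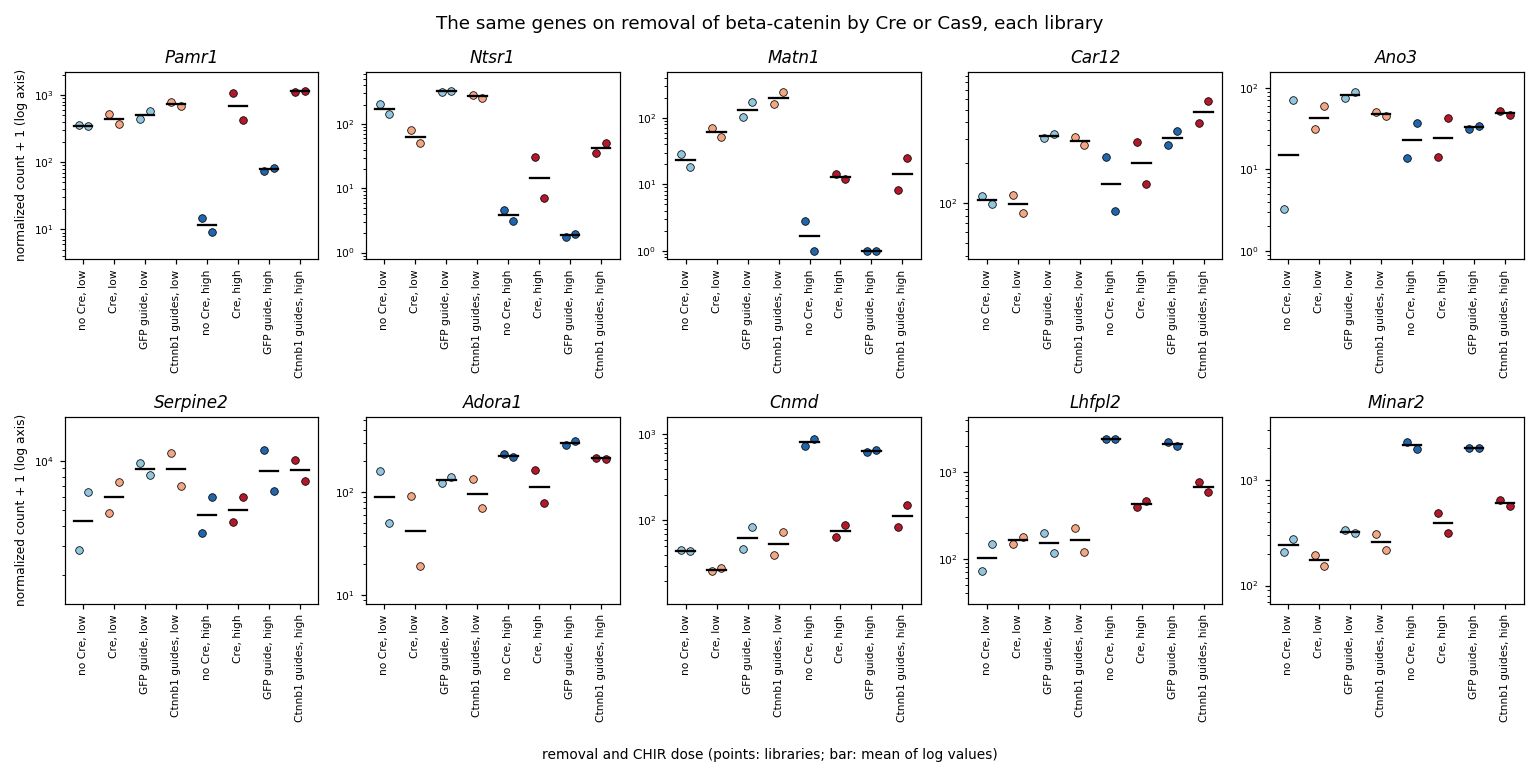
Normalized count plus 1 on a log axis for each of the 10 genes with and without β-catenin removal, by Cre or by Cas9, in low (1.25 µM) and high (5 µM) CHIR. Points are libraries and bars are means of log values. In high CHIR *Pamr1*, *Ntsr1* and *Matn1* go up and *Cnmd*, *Lhfpl2* and *Minar2* go down on removal, while *Serpine2* stays between 3624 and 11606.

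Whether removal acted differently at the 2 doses was tested by the difference itself. The effect of Cre removal was more positive in high than in low CHIR for 1 gene and more negative for 3, where 0.745% and 0.250% of all genes were called. For *Pamr1* the difference was 5.54 on the log2 scale (standard error 0.51, limma adjusted p = 0.000179). For *Lhfpl2* it was -3.17 (adjusted p = 0.007), for *Cnmd* -2.67 (adjusted p = 0.0326) and for *Minar2* -1.97 (adjusted p = 0.0135). The call of *Cnmd* was lost with each of the 8 Cre and control libraries left out (adjusted p from 0.0516 to 0.141) and with edgeR (0.113). That of *Minar2* was lost without replicate 1 of either control group (0.0648 in high and 0.0689 in low CHIR), Cre high CHIR replicate 2 (0.0509) or Cre low CHIR replicate 1 (0.0653). With Cas9 the difference was called for *Ntsr1* (4.82, limma adjusted p = 0.0139) and *Pamr1* (3.35, limma adjusted p = 0.00777). Over all genes 0.471% were called more positive and 0.0477% more negative. *Ntsr1* lost that call in 6 of 8 fits with a library left out (all but those without replicate 1 of *Ctnnb1* sgRNA or replicate 2 of the GFP sgRNA in high CHIR, adjusted p from 0.0532 to 0.106) and *Pamr1* in 3 (without replicate 2 of either low CHIR group or of *Ctnnb1* sgRNA in high CHIR, from 0.0543 to 0.0586). For *Cnmd*, *Lhfpl2* and *Minar2* the Cas9 differences were -2.27, -1.80 and -1.43 and were not called (adjusted p = 0.125, 0.248 and 0.143). With the replicate number as a block all 3 were called (0.00739, 0.0158 and 0.0356), and DESeq2, without GFP sgRNA replicate 1 in low CHIR, called *Lhfpl2* (0.00441) and *Minar2* (0.0184). The difference for *Matn1* was 3.25 and not called (0.242), but was called with the block (0.0437) and by DESeq2 (0.0205).

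Side by side, the 10 genes fall into 3 sets, made after the values were seen and with no test. Neither loss was complete in the paper's protein staining. From low to high CHIR, 4 of 5 differentiation genes, such as *Wnt4* and *Jag1*, were still called higher in QKO. In the controls 5 of 5 were, where 225 (QKO) and 1108 (controls) of all 15878 genes were called higher. The part of the remaining protein in the values below was not tested. *Pamr1*, *Ntsr1* and *Matn1* had lower values in high than in low CHIR and higher ones, in high CHIR, on loss of either β-catenin or Tcf/Lef. For *Pamr1* the fitted log2 fold changes in high CHIR were 5.87 by Cre, 3.86 by Cas9 and 5.42 in QKO. For *Matn1* they were 2.95, 3.85 and 5.18, and for *Ntsr1* 1.95, 4.54 and 4.70. *Lhfpl2*, *Minar2* and *Cnmd* had high levels in the high CHIR controls that fell on β-catenin removal. In QKO at the same dose *Lhfpl2* and *Minar2* were at -0.66 and -0.35, and *Cnmd* at 1.36. In low CHIR, where β-catenin removal gave no call, the QKO values of these 3 were 2.21, 1.31 and 2.37. *Serpine2*, *Ano3*, *Car12* and *Adora1* were higher in QKO at both doses by 1.28 to 3.01 on the log2 scale. β-Catenin removal gave no call for them at either dose, and their dose responses were not alike. In wild-type NPCs *Car12* was called lower in high than in low CHIR (-2.02), and *Serpine2*, *Ano3* and *Adora1* were not called. From low to high CHIR the QKO controls changed by -0.93 for *Car12*, -1.70 for *Ano3* and 2.85 for *Adora1*, while *Serpine2* overlapped. The β-catenin controls without Cre changed by 0.41 for *Car12*, 0.59 for *Ano3* and 1.34 for *Adora1*. Those with the GFP sgRNA changed by -0.046, -1.31 and 1.18, and *Serpine2* overlapped in both. The falls of *Car12* and *Ano3* were thus not seen in every set of controls.

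**Figure D4:**
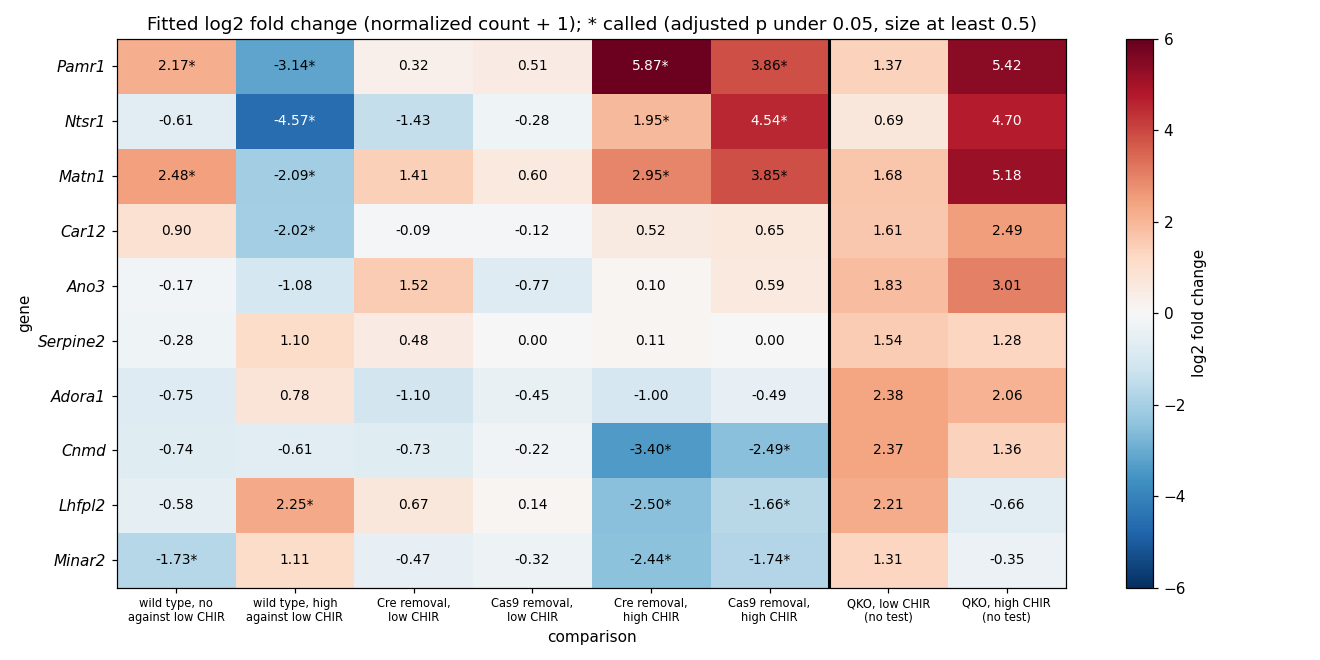
Fitted log2 fold changes of normalized count plus 1 for the 10 genes (rows) in 8 comparisons (columns), with red above and blue below 0. An asterisk marks a call by limma in the 6 tested columns, and the 2 columns right of the line are the contrasts on which the genes were chosen and carry no test. In high CHIR *Cnmd* is at -3.40 and -2.49 on removal of β-catenin and at 1.36 in QKO.

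The dose response of the control NPCs puts *Cnmd* in context. In the 2 control groups of the β-catenin experiment its mean was 18.5-fold higher in high than in low CHIR without Cre and 9.95-fold with the GFP sgRNA. In the QKO experiment the controls differed 2.58-fold, with 229, 188 and 179.8 in low CHIR. Wild-type NPCs, which were not transfected, showed no call and a log2 fold change of -0.61. The tables were normalized separately and the cultures differed in transfection, sorting and time, so these levels are set beside each other and not compared. *Lhfpl2* was higher in high CHIR in all 4 sets of cells, 5.06-fold in wild-type NPCs and 22.4-fold, 13.7-fold and 20.0-fold in the 3 sets of controls.

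Markers of other programs moved in the same high CHIR libraries. Of 7 self-renewal genes, 6 were called higher on Cre removal and 5 on Cas9 removal, and of 4 differentiation genes tested all 4 were called lower in both. Over all genes, 5.90% by Cre and 3.44% by Cas9 were called higher, and 2.75% and 1.64% lower. The 8 markers that define NPCs were mixed, with 4 higher and 2 lower by Cre and 3 higher and 2 lower by Cas9. The summed level of the 7 self-renewal genes was 14466 to 16761 with Cre and 2679 to 4300 without, and 4178 to 5726 in QKO in high CHIR against 1090 to 2508 in the controls. *Matn1* and *Cnmd* are best known from cartilage, so 18 other genes of cartilage matrix were read beside them, of which 7 were tested in the β-catenin table. On Cre removal in high CHIR 4 of the 7 were called higher, with *Col2a1*, the main collagen of cartilage, at 2.69, *Sox9*, a factor that drives it, at 2.49 and *Col9a1* at 2.31. Their summed level was 4326 to 5742 with Cre and 991 to 1047 without. In QKO in high CHIR it was 561 to 685, within the 508 to 945 of its controls. The rise of *Matn1* thus stood beside a rise of the cartilage list on β-catenin removal and beside no such rise in QKO, and the fall of *Cnmd* went against the list. Stroma markers summed to 7788 to 15052 with Cre and 5142 to 6848 without in high CHIR, and their part in these results was not tested. In QKO in high CHIR they summed to 1277 to 9343 and in the controls to 1075 to 4714.

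Relatives and partners of the 10 genes were read beside them. Of 21 family members tested in the β-catenin table, 3 were called higher and 1 lower on Cre removal in high CHIR, and 3 higher and 0 lower on Cas9 removal (5.90% and 2.75% of all genes by Cre, 3.44% and 1.64% by Cas9). The median log2 fold changes of this list were 0.48 and 0.42, against -0.02 and -0.00018 over all genes. *Minar1*, the close relative of *Minar2*, went opposite to it, with 4.25 by Cre and 4.68 by Cas9 (limma adjusted p = 0.0135 and 0.0137). *Car13*, another carbonic anhydrase, was at 2.80 and 1.28 (adjusted p = 5.34e-05 and 0.0257). Of 11 ligands and partners tested, 4 were higher on Cre removal and 2 on Cas9 removal, with *Plat*, a plasminogen activator that Serpine2 inhibits, at 1.12 and 1.25 (adjusted p = 0.00798 and 0.00724).

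High CHIR raised 3 of 23 family members in wild-type NPCs and lowered 4, against low CHIR (5.33% and 5.05% of all genes). Of 12 ligands and partners 1 was higher and 2 were lower. The one that was higher is *Nts*, the precursor of neurotensin, at 4.56 (standard error 0.79, limma adjusted p = 0.00476). *Ntsr2*, the second neurotensin receptor, was at 5.97 (standard error 1.07, limma adjusted p = 0.00577), in the comparison where *Ntsr1* fell by 4.57. *Slc29a1*, a transporter of adenosine, fell by 2.05 (limma adjusted p = 0.000124). *Notch2* fell by 1.52 (limma adjusted p = 0.00181). For the Wnt feedback genes, such as *Notum* and *Sp5*, 6 of 11 were called higher in high CHIR, and on removal in high CHIR 6 of 10 were lower and 1 higher by Cre, and 4 were lower by Cas9. In QKO in high CHIR the median of these 10 was -0.84.

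Over the 16 libraries of the β-catenin experiment, 9 of the 10 genes had a mean of at least 50 normalized counts, and for each the gene with the most similar pattern was found among 12921. These correlations of log2(normalized count + 1) are descriptions, and the 16 libraries share dose, method and normalization. *Cnmd* was most like *Lrp4* (r = 0.968), *Lhfpl2* like *Epha4* (0.976) and *Minar2* like *Trappc9* (0.979). *Matn1* was most like *Capn1* (0.981), *Ntsr1* like *Zfp747* (0.968) and *Pamr1* like *Gstm1* (0.963). *Adora1* went with *Slc38a1* (0.942), *Car12* with *Jak3* (0.940), and *Serpine2*, the least matched, with *Ifi203* (0.875). Among the genes themselves, *Cnmd* and *Minar2* had the highest r (0.957), followed by *Lhfpl2* and *Minar2* (0.95) and *Matn1* and *Ntsr1* (0.932), and *Lhfpl2* and *Ntsr1* the lowest (-0.908).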

How the data were processed

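The 3 tables hold a signal per gene and library that the authors deposited as normalized counts. From 150-base read pairs the authors made alignments with STAR to GRCm38 combined with the human genome, and counted uniquely aligned reads per Ensembl gene with featureCounts. They divided each count by 1 DESeq2 size factor per library, with each table normalized on its own. The lowest total of a listed gene is 10 reads. Another 50 columns of library values were not used, nor were the authors' comparison columns of log2 fold changes and p-values.

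The 10 genes, the gene lists and the sets of tests were chosen with earlier results of these data known. Values were whole multiples of 1 read's worth (100.0% of values, tolerance 0.1), which gave back the reads. In 3 libraries 1 read was worth about 1 normalized count, so those stayed out of the count tests (GFP sgRNA replicate 1 in low CHIR and Cre replicate 1 in high CHIR of the β-catenin table, GFP sgRNA replicate 2 in high CHIR of the QKO table). Depth was 13089780 to 76071568 reads on genes, which limits genes of a few reads. Symbols came from a gene table and positions from GENCODE vM21.

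limma 3.58.1 (R 4.3.3, variance trend) was fitted to log2(normalized count + 1) over all libraries of a table, for genes with a mean of at least 10, with Benjamini-Hochberg adjustment over all genes tested. A call is an adjusted p under 0.05 with a log2 fold change of at least 0.5. Fold changes on this scale understate those of low genes. Alternatives were pseudocounts of 0.5 and 5, no filter, TMM rescaling, only the groups compared, a cut-off of 1, edgeR 4.0.16, DESeq2 1.42.0, the replicate number as a block, and each library left out. Steps were tested on simulated data. No replicate pair agreed within sampling noise.

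Named genes were all 10 members, the targeted genes, at most 4 called genes per list with the largest fold change, and the most similar gene to each member. Same-numbered QKO and control libraries deviated together (correlations across genes 0.369, 0.249 and 0.365 in high CHIR, 0.369 and 0.365 in low CHIR), so the numbers pair these libraries. The QKO values given are without the block, which would give medians of 1.65 and 2.28. Same-numbered wild-type libraries did so weakly for low with high CHIR (0.147, 0.0393 and 0.0946). They did not all do so for no with low CHIR (0.0241, -0.0156 and 0.177).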

Additional observations from a re-analysis of the deposited data

Results flagged for a closer look

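The effect of β-catenin removal differed between the doses for 5 of the 10 genes, by limma's test of the difference itself (0.745% of all genes more positive and 0.250% more negative by Cre, 0.471% and 0.0477% by Cas9). On Cre removal the effect in high CHIR minus that in low CHIR was 5.54 on the log2 scale for *Pamr1*, -2.67 for *Cnmd*, -3.17 for *Lhfpl2* and -1.97 for *Minar2*. On Cas9 removal it was 3.35 for *Pamr1* and 4.82 for *Ntsr1*. Of these 6 differences, those of *Pamr1* and *Lhfpl2* by Cre kept their call with each library left out, and the other 4 lost it in 3 to 8 of 8 such fits.

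In the Tcf/Lef knockout, every library of *Lhfpl2* and *Minar2* lay above the mean log value of the controls in low CHIR and below it in high CHIR. The fitted log2 fold changes were 2.21 and -0.66 for *Lhfpl2* and 1.31 and -0.35 for *Minar2*. No test of this difference is given, since the genes were chosen on these libraries.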

How the results depend on the processing

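edgeR and DESeq2 ran without the 3 libraries in which 1 read was worth about 1 normalized count. They thus change the tool and the libraries together. Causes were not tested. In wild-type NPCs, going from low to high CHIR, DESeq2 called 3 of the 10 higher in place of 1, and for no against low CHIR a pseudocount of 0.5 called 1 in place of 2. For Cre removal in low CHIR DESeq2 called 1 lower in place of 0. For Cre removal in high CHIR a pseudocount of 5 and the fit of only the groups compared each called 1 higher in place of 3. So did edgeR and DESeq2, which lack Cre replicate 1, and limma without that library. With the replicate number as a block, 11 differences between the doses were called over Cre and Cas9 together in place of 6 (adding *Ntsr1* for Cre and *Cnmd*, *Lhfpl2*, *Matn1* and *Minar2* for Cas9). The block ended the call of *Matn1* from low to high CHIR in wild type (adjusted p = 0.05003) and changed no other call of the 10 genes. In the β-catenin table same-numbered libraries deviated together within each method (correlations across genes 0.334 to 0.518 for Cre and 0.116 to 0.491 for Cas9), but there are only 2 a group and the labels do not say that a number marks a shared culture.

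With 1 library left out, and a lone library taken to vary like the other groups, the counts higher and lower ran from 1 to 2 and 3 to 4 (wild type, high against low CHIR). With no CHIR they were 0 and 0 in every such fit. On Cre removal in low CHIR the count higher ran from 0 to 1, and in high CHIR from 1 to 3. On Cas9 removal in high CHIR they were 2 to 3 higher and 2 lower. The count of differences between doses ran from 4 to 6. The QKO medians ran from 1.53 to 1.97 in low and 2.17 to 2.39 in high CHIR.

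Signs turned only for values that were not called. For *Car12* on Cre removal in high CHIR DESeq2 gave -0.16 and edgeR -0.17, both without Cre replicate 1, and limma without it gave -0.012. For *Serpine2* on Cas9 removal DESeq2, edgeR and TMM rescaling gave 0.15, 0.17 and 0.0020 in low CHIR (limma without GFP sgRNA replicate 1, which the first 2 lack, gave 0.12), and DESeq2 and edgeR -0.043 and -0.028 in high CHIR. Leaving out 1 library turned 13 of the tested log2 fold changes, and *Ntsr1* in QKO in low CHIR (0.69, and -0.17 without QKO replicate 3). The 13 were *Adora1* on Cas9 (-0.91 to 0.011) and Cre removal in low CHIR (-2.23 to 0.033), *Ano3* with no CHIR (-0.51 to 0.34) and on Cre removal in low (-0.71 to 3.75) and high CHIR (-0.69 to 0.89), and *Car12* on Cre removal in low (-0.32 to 0.14) and high CHIR (-0.15 to 1.18). The rest were *Cnmd* (-0.66 to 0.22) and *Lhfpl2* (-0.32 to 0.59) on Cas9 removal in low CHIR, and *Serpine2* on Cas9 removal in low (-0.34 to 0.34) and high CHIR (-0.41 to 0.41) and on Cre removal in low (-0.11 to 1.06) and high CHIR (-0.25 to 0.47).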
